A study of Mus musculus with 8 samples.

Results

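Gene expression had been measured in pancreatic islets of 2 inbred mouse strains, AKR/J and C57Bl/6J, after 3 months on a high-fat diet. Each strain gave 4 RNA samples with 1 Affymetrix MOE430 array per sample, and a sample combined the islets of 2 mice. Arrays 1 to 4 held AKR/J and arrays 5 to 8 held C57Bl/6J. Every group carried the same diet, so each comparison is between strains. The genes described here are those read as present in C57Bl/6J and near absent in AKR/J. The members were chosen by their GCRMA values alone. A probe set, the group of short probes that reports 1 transcript region, was a member when all 4 C57Bl/6J values were at least 50 and all 4 AKR/J values at most 20 on the linear scale of the deposited GCRMA intensities. Of 34945 probe sets with 1 gene symbol, 15 met the rule (0.0429%), and they name 14 of 18193 genes. A further 4 probe sets met both limits but were left out by symbol (H2-Q2, H2-Ab1, Igha and Ang), and 2 more have no single symbol. The mirrored rule, present in AKR/J and near absent in C57Bl/6J with no symbols left out, found 12 probe sets of 10 genes.

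Inbred strains differ at many sites in and around genes. A site that alters a promoter, a splice junction or a polyadenylation signal can change how much of a transcript, or which form of it, is made. Array probes are short, so a site under the probes can also change the signal of 1 probe set and leave others of the same gene as they were. For that reason every other probe set of each gene is reported beside the one that met the rule. No probe sequences were used here.

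Because the rule read the strain contrast itself, the values of the member probe sets are a description and were not tested. In all 15 the strains do not overlap, by construction; 10.6% of the 20772 probe sets called detected on 4 or more of the 8 arrays had every C57Bl/6J array above every AKR/J array. The folds of C57Bl/6J over AKR/J ran from 5.58 to 210, with a median of 10.97 (n = 4 arrays each). Within C57Bl/6J the coefficient of variation of a member ran from 7.71% to 25.04%. By the per-array detection calls, 14 of the 15 were detected on all 4 C57Bl/6J arrays. Only 9 of the 15 were undetected on all 4 AKR/J arrays, and the other 6 were called on 1 to 4 of them. Where a probe set was detected on every C57Bl/6J array and no AKR/J array, its fold is written as a measured ratio. That fold is the ratio of the measured means, with undetected values in AKR/J. Its fold with the MAS5-type signals, a different summary of the same arrays, is of the same kind. Both depend on the background level and on the arrays used, so neither is a firm minimum. Such folds have no order among themselves, and the median takes them at the measured ratio. The members nearest the limits were Cdc37l1, whose lowest C57Bl/6J value was 55.6, and Lefty1, whose highest AKR/J value was 19.9. Just outside lay 8 probe sets, among them those of Zfp991 (lowest C57Bl/6J value 49.98), Gm26782 (49.6) and Trim34a (49.1).

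**Figure D1:**
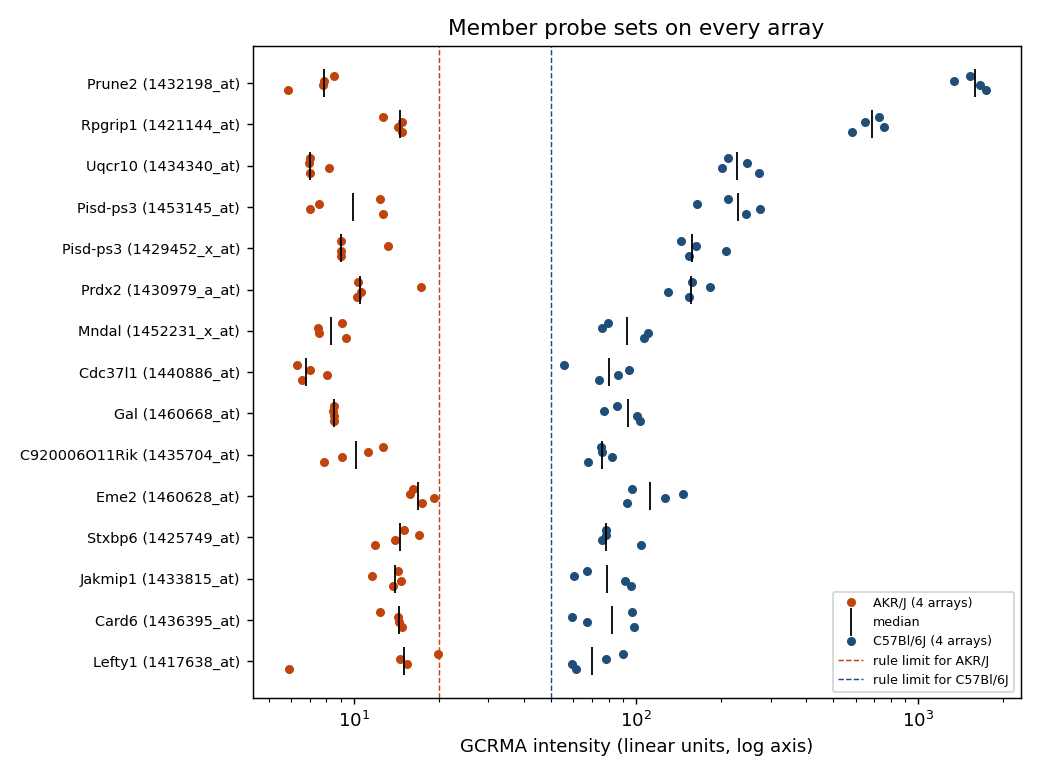
GCRMA intensity (linear units on a log axis) of the 15 member probe sets on the 4 AKR/J arrays and the 4 C57Bl/6J arrays, with the median of each strain as a black bar and the rule's limits of 20 and 50 as dashed lines. Prune2 and Rpgrip1 lie furthest above the limit in C57Bl/6J, and Lefty1 spreads most in AKR/J, from 5.88 to 19.9.

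The name "near absent in AKR/J" holds for the probe sets and not for all of the genes. Of the 14 genes, 11 have other probe sets with that symbol alone, 25 in all, and Gal, Lefty1 and Card6 have none. For 7 of the 11 genes at least 1 other probe set was detected on all 4 AKR/J arrays with every AKR/J value at 50 or more. These are Prune2, Uqcr10, Prdx2, Cdc37l1, Jakmip1, Stxbp6 and Pisd-ps3. Of the 25 other probe sets, 19 were called detected on 4 or more arrays and entered limma's fit across all 20772 such probe sets, with Benjamini-Hochberg adjustment. They come from the same arrays and the same contrast that chose the genes, so their counts are a description. In that fit 9 of the 19 were higher in C57Bl/6J (7.7% of all probe sets tested were), 2 were higher in AKR/J (6.59% of all) and 8 did not pass at an adjusted p of 0.05. Of the 19, 3 were detected on no AKR/J array and entered only through their detection on the C57Bl/6J arrays, and 2 of the 9 are among these. When detection on all 8 arrays was required, 13 remained, of which 6 were higher in C57Bl/6J and 2 in AKR/J. The shares called over all probe sets under that filter were not computed, so these counts have no baseline. For the 19 the median log2 difference, AKR/J minus C57Bl/6J, was -0.59, against -3.46 for the 15 members and -0.01 for all probe sets tested.

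**Figure D2:**
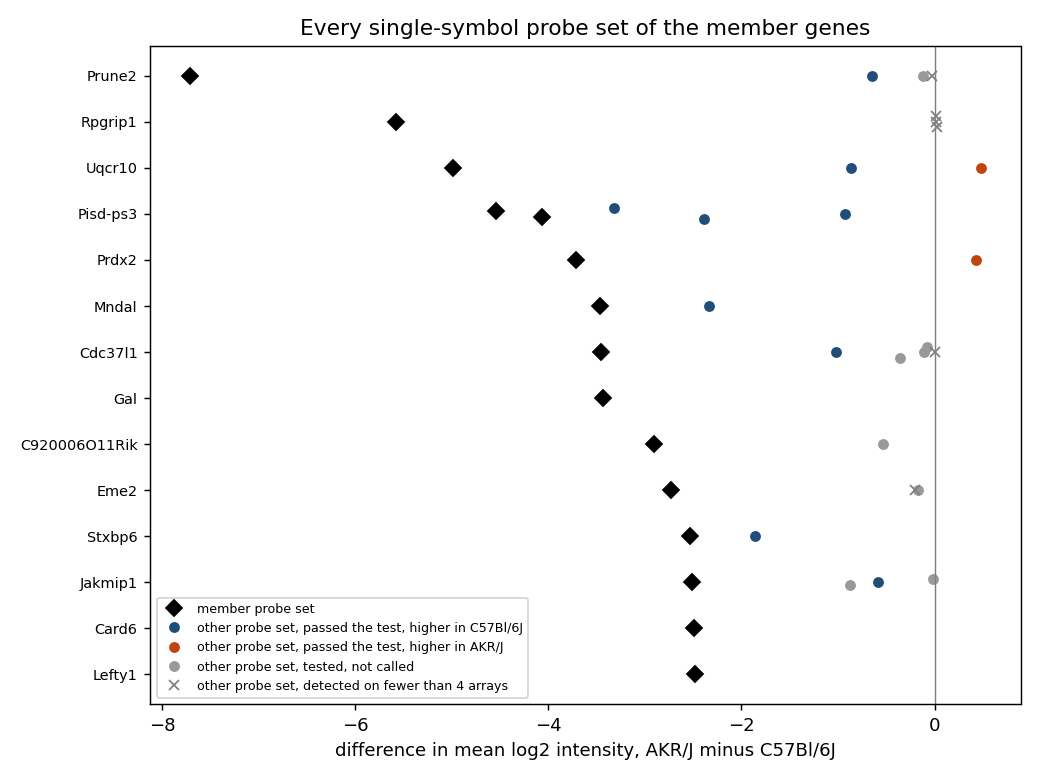
Difference in mean log2 intensity, AKR/J minus C57Bl/6J (n = 4 arrays each), for every probe set that names a member gene alone, 1 row per gene. Black diamonds are the 15 member probe sets; circles are the 19 other probe sets tested and crosses the 6 detected on fewer than 4 arrays. The circles have a median of -0.59, and those of Prdx2 and Uqcr10 on the right of the line go the other way from the member.

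Among the secreted signals was galanin, a neuropeptide that lowers insulin release from beta cells, encoded by Gal. Its only probe set (1460668_at) was at 8.48, 8.51, 8.42 and 8.49 on AKR/J arrays 1 to 4 and at 104, 101, 77.3 and 85.6 on C57Bl/6J arrays 5 to 8. All 4 C57Bl/6J values are far above those of AKR/J. The AKR/J values are almost identical to each other in the GCRMA summary only, as their MAS5-type signals, given below, spread more widely. The means on the log2 scale were 3.08 ± 0.01 and 6.51 ± 0.20 (SD, n = 4 each), a 10.8-fold excess in C57Bl/6J. The probe set was nevertheless called detected on 2 of 4 AKR/J arrays, and the MAS5-type signals gave 27.7 to 57.1 in AKR/J against 216 to 315 in C57Bl/6J, a 6.64-fold excess. The RefSeq sequence just before the Gal start is shown because no other probe set reports on this gene; the capitals mark GGGCGG, a GC box, found 122 bases before the start (GRCm38.p6, chr19:3414545-3414694, minus strand).
Gal: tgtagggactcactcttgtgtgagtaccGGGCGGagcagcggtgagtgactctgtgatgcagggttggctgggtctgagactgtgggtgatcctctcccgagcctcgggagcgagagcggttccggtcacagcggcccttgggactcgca

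Lefty1 encodes a secreted inhibitor of Nodal signalling. Its single probe set (1417638_at) was at 5.88, 15.4, 14.6 and 19.9 in AKR/J and at 61.2, 59.4, 78.5 and 89.7 in C57Bl/6J. It was detected on no AKR/J array and on all C57Bl/6J arrays. AKR/J array 1 lies well under the other 3, and without it the log2 difference was -2.11 in place of -2.48, the largest move that leaving out any 1 array made to any member. Over all arrays the ratio of the measured means was 5.58, and 16.7 with the MAS5-type signals. Both rest on undetected AKR/J values, and neither is a firm minimum.

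Rpgrip1, which encodes a scaffold of the photoreceptor connecting cilium that binds the RPGR protein, was among the brightest members in C57Bl/6J. Probe set 1421144_at was at 14.8, 14.3, 14.8 and 12.7 in AKR/J and at 581, 758, 648 and 728 in C57Bl/6J. It was detected on no AKR/J array and on all 4 C57Bl/6J arrays, with a measured ratio of 47.8 (24.9 with the MAS5-type signals). The other 3 probe sets of Rpgrip1 were not detected on any of the 8 arrays. They stayed at 5.96 to 9.21 over both strains, with log2 differences of 0.02, 0.02 and 0.02. The signal in C57Bl/6J islets therefore came from 1 of 4 probe sets. A list of 26 tested genes was taken for the ciliary gate, the base of the cilium where this protein sits. It also holds genes of transport to and in the cilium, such as Ift140, Ift88 and Rab8a. Of the 26, 3 passed as higher in AKR/J (7.79% of the 10891 genes tested did) and 1 as higher in C57Bl/6J (8.55% did). Cep290, a protein of the transition zone, was 1.999-fold higher in C57Bl/6J (adjusted p by limma 0.00355). B9d1 (1.44-fold), Ift140 (1.38-fold) and Rab8a (1.36-fold) were the 3 higher in AKR/J. Over the list the median log2 difference was -0.06, against -1.33e-05 over all genes. Below are 2 stretches of the Rpgrip1 promoter window, which runs from 250 bases before to 50 after an annotated start, that hold motifs searched; the capitals mark a TATAAA on the reverse strand (GRCm38.p6, chr14:52110756-52110785, plus strand) and the first CCAAT (chr14:52110671-52110700, plus strand).
Rpgrip1 TATAAA: ctgggttgatgcTTTATAtgctgtttctcc
Rpgrip1 CCAAT: atgccattttccCCAATaccaactcatttt

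Prune2, Stxbp6 and Jakmip1 are described next, and a shared role of these genes was not tested. Prune2 encodes a large protein with a BCH domain. Its member probe set 1432198_at had the highest C57Bl/6J values of all members, at 5.82, 7.78, 7.86 and 8.52 in AKR/J and 1734, 1653, 1338 and 1525 in C57Bl/6J. The mean log2 values were 2.89 ± 0.24 and 10.60 ± 0.16 (SD, n = 4 each). The measured ratio was 210 (65.2 with the MAS5-type signals) and rests on undetected AKR/J values. Another probe set of Prune2, 1455342_at, was detected on all 8 arrays, at 324, 332, 366 and 380 in AKR/J and 484, 563, 570 and 585 in C57Bl/6J. By that one the strains again did not overlap, but C57Bl/6J was only 1.57-fold higher (limma adjusted p = 0.00241). Probe set 1439274_at lay at 14.0 to 14.2 in AKR/J against 11.7 to 19.2 in C57Bl/6J and was not called. Within this 1 gene the measured differences ran from -7.71 to -0.12 on the log2 scale among the detected probe sets.

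Stxbp6 encodes amisyn, which binds SNARE proteins of vesicle fusion. Probe set 1425749_at was at 11.9, 14.0, 17.1 and 15.1 in AKR/J and 105, 75.6, 78.3 and 78.4 in C57Bl/6J, a 5.79-fold excess, and was called detected on 3 of 4 AKR/J arrays. The brighter probe set 1435396_at was at 102, 131, 135 and 132 in AKR/J and 386, 404, 539 and 488 in C57Bl/6J, a 3.63-fold excess (limma adjusted p = 0.000104). Both probe sets of Stxbp6 thus put all C57Bl/6J arrays above all AKR/J arrays, and the brighter one reads the gene as clearly detected in AKR/J.

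Jakmip1 encodes a protein that binds Janus kinases and microtubules. Its member probe set 1433815_at was at 13.7, 14.7, 11.6 and 14.3 in AKR/J and 95.9, 91.3, 60.2 and 67.2 in C57Bl/6J. The measured ratio was 5.70 (5.11 with the MAS5-type signals) and rests on undetected AKR/J values. In 1441317_x_at, detected on all arrays, the values were 276, 249, 266 and 235 in AKR/J and 356, 447, 411 and 334 in C57Bl/6J, a 1.502-fold excess (limma adjusted p = 0.00942). The suffix _x_at marks probes that can bind other transcripts. A dim probe set, 1430597_at, was detected on all C57Bl/6J and no AKR/J arrays. Only its C57Bl/6J detection brought it into the fit, so it is given without a test. Its measured log2 difference, -0.87, rests on undetected AKR/J values. Probe set 1457080_at was alike in both strains (log2 difference -0.02).

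The members linked to innate immunity were Mndal and Card6. Mndal belongs to the interferon-inducible family of DNA-binding HIN-200 proteins. Its member probe set 1452231_x_at was at 9.35, 7.50, 7.46 and 9.09 in AKR/J and 107, 110, 75.8 and 79.5 in C57Bl/6J, a measured ratio of 11.04 (21.4 with the MAS5-type signals). Its other probe set, 1426906_at, was at 7.35, 7.05, 7.03 and 7.13 in AKR/J and at 57.1, 33.7, 48.4 and 18.2 in C57Bl/6J, a measured ratio of 5.06. It entered the fit through the C57Bl/6J arrays alone, so no test is given. Neither probe set was detected on any AKR/J array and both were on every C57Bl/6J array, so for Mndal all probe sets that name it alone went together. A probe set shared with the related genes Ifi211, Ifi205 and Ifi204 was 7.42-fold higher in C57Bl/6J as well, and was detected on 3 of 4 AKR/J arrays. These family members are near copies of each other and can share signal.

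Both RefSeq promoter windows of Mndal hold GAAA, any 2 bases and GAAA, the core of the interferon-stimulated response element, shown here because Mndal was the only one of 11 member genes with a window to hold it. Over all 32851 windows of 300 bases, 3.44% hold it on 1 strand or the other. The capitals mark the match, on the forward strand 36 bases before 1 annotated start (GRCm38.p6, chr1:173880204-173880233, minus strand) and on the reverse strand 54 bases before the other (chr1:173879993-173880022, minus strand). For the members as a whole, the windows held TATAAA in 2 of 13 (13.6% of all windows), CCAAT in 6 (37.4%), GGGCGG in 4 (35.7%), and CACGTG (7.15%) and TGACGTCA (1.79%) in 0. A match is only a match of letters in the reference strain's sequence, and AKR/J sequence was not used here.
Mndal start 1: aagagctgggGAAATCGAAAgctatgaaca
Mndal start 2: ttttgagtcaTTTCTCTTTCtactcaaaac

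Card6, which encodes a protein with a caspase recruitment domain, has 1 probe set (1436395_at), at 14.9, 14.5, 14.4 and 12.4 in AKR/J and 98.3, 67.0, 59.5 and 97.1 in C57Bl/6J. That is a 5.61-fold excess, and 2.92-fold with the MAS5-type signals, the smallest of the members by that summary. The detection calls read it as present on 3 of 4 AKR/J arrays, where its MAS5-type signals were 35.0 to 55.2. Of 14 macrophage genes tested, 8 passed as higher in C57Bl/6J (8.55% of all genes tested did) and 0 in AKR/J (7.79% did). Among the 8 were C1qc (3.5-fold), Ctss (2.46-fold) and C1qb (2.33-fold). The other 6 did not pass, among them C1qa (log2 difference -0.007, limma adjusted p = 0.973). The list median was -0.62. The summed level of the list was 2015 to 2534 in AKR/J against 3510 to 4637 in C57Bl/6J. Without array 1, 2 or 6 the count higher in C57Bl/6J was 5, 5 and 4, and it was 4 with no filter on dim probe sets. Of 6 lymphocyte genes, 1 was higher in C57Bl/6J, Ptprc (1.76-fold), and 0 in AKR/J, against the same 8.55% and 7.79% of all genes (median -0.39; summed level 110 to 253 against 225 to 430); that count was 2 without array 1 or 5 and 0 without array 3, 6, 7 or 8, and 4 of the 11 genes listed with a probe set were detected on no array. The part of these cells in the values of Mndal and Card6 was not tested. In pooled islet RNA fewer cells of a type and less RNA per cell cannot be told apart.

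In the mitochondrial and redox genes the probe sets disagreed in direction. Uqcr10 encodes a small subunit of respiratory complex III. Its member probe set 1434340_at was at 7.0, 8.17, 6.96 and 6.98 in AKR/J and 272, 201, 247 and 211 in C57Bl/6J, a measured ratio of 31.8 (54.0 with the MAS5-type signals). The brighter 1424364_a_at was at 1073, 1009, 952 and 987 in AKR/J and 684, 665, 818 and 722 in C57Bl/6J. There AKR/J was 1.39-fold higher with no overlap (limma adjusted p = 0.00747). Its last probe set, 1434341_x_at, was at 251, 234, 200 and 145 in AKR/J and 382, 349, 358 and 394 in C57Bl/6J, a 1.82-fold excess in C57Bl/6J (limma adjusted p = 0.0109). It was called detected on only 2 of 4 AKR/J arrays, and its excess was 5.20-fold with the MAS5-type signals. Uqcr10 was hence detected on all AKR/J arrays by its brightest probe set. That probe set read higher in AKR/J and the others higher in C57Bl/6J, by unlike amounts.

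Prdx2 encodes peroxiredoxin 2, a cytosolic enzyme that removes hydrogen peroxide. Member probe set 1430979_a_at was at 10.3, 10.6, 17.3 and 10.4 in AKR/J and 155, 130, 182 and 158 in C57Bl/6J. It was called detected on 1 of 4 AKR/J arrays, so the ratio of the measured means, 13.1, rests on AKR/J values mostly at background. The other probe set, 1418506_a_at, was at 2124, 2170, 1971 and 2059 in AKR/J and at 1539, 1545, 1654 and 1449 in C57Bl/6J, 1.35-fold higher in AKR/J (limma adjusted p = 0.00463). The strains do not overlap in either, and the pair goes in opposite directions. With the MAS5-type signals the same directions held for both probe sets of Prdx2 and for all 3 of Uqcr10.

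**Figure D3:**
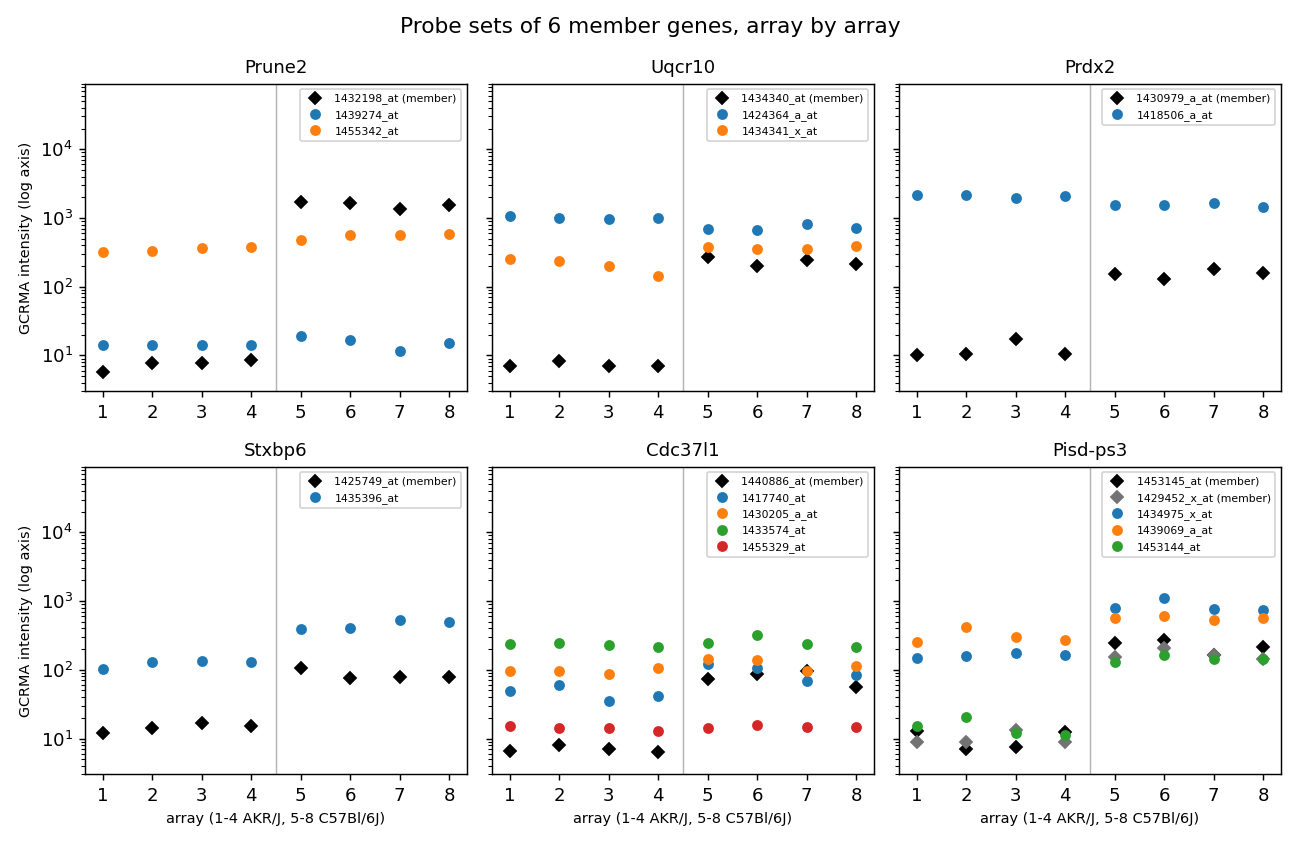
GCRMA intensity (linear units on a log axis) on arrays 1 to 4 (AKR/J) and 5 to 8 (C57Bl/6J) for the member probe sets (diamonds) and the other tested probe sets (circles) of 6 genes. In Prune2, Uqcr10, Prdx2, Stxbp6, Cdc37l1 and Pisd-ps3 at least 1 circle series stays at 50 or more on all AKR/J arrays while the diamonds lie at or under 20.

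Cdc37l1 encodes a relative of the Hsp90 partner Cdc37. The member 1440886_at was at 6.55, 8.06, 7.02 and 6.27 in AKR/J and 73.9, 86.6, 94.5 and 55.6 in C57Bl/6J, a measured ratio of 10.97 (5.82 with the MAS5-type signals). Its brightest probe set, 1433574_at, was at 234, 247, 232 and 217 in AKR/J and 243, 316, 235 and 218 in C57Bl/6J. These ranges overlap and the difference did not pass (log2 difference -0.11, SE 0.12, limma adjusted p = 0.571). Of the other 3 tested, 1417740_at was 2.03-fold higher in C57Bl/6J (adjusted p = 0.0193), and the remaining pair, at -0.36 and -0.07 on the log2 scale, did not pass.

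Eme2 encodes a partner of the Mus81 nuclease in DNA repair. Its member 1460628_at was at 17.5, 19.3, 15.8 and 16.3 in AKR/J and 93.2, 127, 146 and 96.9 in C57Bl/6J, 6.63-fold, and was called detected on 2 of 4 AKR/J arrays. The dim 1429034_at was detected on all 8 arrays, at 23.5 to 25.1 in AKR/J against 24.5 to 33.5 in C57Bl/6J, and did not pass (log2 difference -0.18, limma adjusted p = 0.284). The last probe set of Eme2 was detected on 1 array.

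The non-coding members were Pisd-ps3 and C920006O11Rik. Pisd-ps3 is a transcribed pseudogene of Pisd, the gene for phosphatidylserine decarboxylase, and the only gene with a pair of member probe sets. In 1453145_at the values were 12.7, 6.97, 7.51 and 12.3 in AKR/J and 246, 276, 165 and 212 in C57Bl/6J, 23.2-fold. In 1429452_x_at they were 9.01, 9.04, 13.2 and 8.97 in AKR/J and 154, 208, 163 and 144 in C57Bl/6J, a measured ratio of 16.7. The detection calls read these differently: the first was detected on all 4 AKR/J arrays and the second on only 1 of 4 C57Bl/6J arrays. The second alone of the members did not enter the fit. It was detected on no AKR/J array either, so its ratio rests on mostly undetected values in both strains. All 3 other probe sets of Pisd-ps3 read higher in C57Bl/6J. The folds were 5.24 for 1434975_x_at, 1.90 for 1439069_a_at and a measured ratio of 9.96 for 1453144_at, which missed membership by 1 AKR/J value of 20.7. The limma adjusted p was 2.48e-05 and 0.00537 for the first and second of these; the last was detected on no AKR/J array and is given without a test. Probe sets shared with Pisd or Pisd-ps1 that were tested, 4 in all, were 1.91-fold to 5.75-fold higher in C57Bl/6J. Near-identical copies of this sequence exist, so these signals cannot be assigned to 1 locus.

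C920006O11Rik is a long non-coding RNA. Its member 1435704_at was at 7.84, 9.06, 11.2 and 12.7 in AKR/J and 67.8, 82.0, 75.9 and 75.4 in C57Bl/6J, a measured ratio of 7.48, with the smallest spread of any member in C57Bl/6J. The other probe set, 1445878_at, lay at 4.49 to 4.52 in AKR/J against 4.51 to 9.98 in C57Bl/6J and did not pass (limma adjusted p = 0.157).

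The MAS5-type signals kept all 15 members in the same direction without overlap of the strains, at 2.92-fold to 65.2-fold, and 9 of the 15 measured ratios were smaller than with GCRMA. Applied to those signals at the same percentiles of all values, the rule found 22 probe sets, 13 of them among the 15, and missed Eme2 and Jakmip1.

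**Figure D4:**
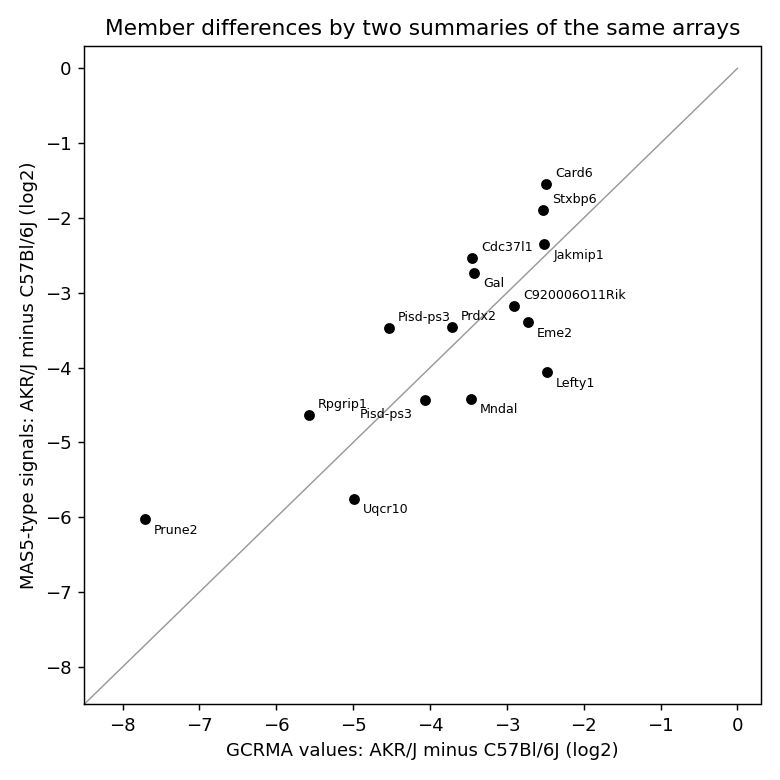
Difference in mean log2 value, AKR/J minus C57Bl/6J (n = 4 arrays each), for the 15 member probe sets by the GCRMA values (x) and by the quantile-normalized MAS5-type signals (y), with the line of equality. Prune2 and Rpgrip1 lie furthest from 0 on the x axis; Prune2, at -7.71, is -6.03 on the y axis, and Lefty1 moves from -2.48 to -4.06.

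In the series as a whole, arrays of a strain correlated at r = 0.985 to 0.993 and arrays of different strains at 0.966 to 0.975 over the tested probe sets. Between 43.7% and 48.1% of probe sets were detected per array, 44.9% ± 1.55 (SD, n = 4) for AKR/J against 47.0% ± 1.18 for C57Bl/6J. The islet hormone genes Ins2, Gcg, Sst, Ppy and Iapp were detected on all 8 arrays. Ppy was 1.86-fold higher in AKR/J (limma adjusted p = 0.0340), and the other hormone genes named were not called. Glo1, known to be duplicated in AKR/J, was 2.65-fold to 2.74-fold higher in AKR/J by 3 of its 4 probe sets. Nnt, partly deleted in C57Bl/6J, was not called by either tested probe set, and whether these probes lie in the deleted part is not known here. Of 20 tested acinar genes, the digestive-enzyme cells around islets, 19 were higher in C57Bl/6J (8.55% of all genes were) and 0 in AKR/J (7.79% were), among them Pnliprp2 (2.97-fold), Cuzd1 (3.11-fold) and Spink1 (3.98-fold), with a median log2 difference of -0.81; the MAS5-type signals gave 11 higher there. Their summed level was 281463 to 330664 in AKR/J against 487264 to 496728 in C57Bl/6J, and the part of acinar RNA in the members' values was not tested.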

How the data were processed

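The deposited value table holds intensity values on a linear scale made by the authors with GCRMA, per the submitters' processing notes (version not given in the sources used here). Each array's own deposited file gives, per the file headers, an intensity signal of the MAS5 type and a detection p-value for every probe set; a p-value under 0.05 was taken as detected. Undetected probe sets sit at low GCRMA levels that differ from one probe set to another, so small values in AKR/J carry little order. The 64 control probe sets were left out of 45101, leaving 45037. Symbols come from GEO's platform annotation: 34945 probe sets have 1 symbol, 932 several and 9160 none. All 14 member symbols matched RefSeq genes (GRCm38.p6); the files name no genome build, so only promoter sequences carry coordinates. Promoter windows run from 250 bases before to 50 after a start.

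Values were log2-transformed with no pseudocount. limma (3.58.1, R 4.3.3; lmFit and eBayes) was fitted to the 20772 probe sets called detected on 4 or more of the 8 arrays and adjusted by Benjamini-Hochberg at 0.05; lists take the brightest probe set of each of 10891 genes. Labels do not say that pools are separate litters or cages, so p-values measure the spread between these pools, and the 4 arrays per strain limit the precision. No batch or scan date was used. Tested on simulated data with the spread of these 20772 probe sets, of which 200 were changed, the fit found 38% at 1.5-fold, 76% at 2-fold, 94% at 4-fold and 100% at 10-fold, with 10 false calls. The members, lists and tests were chosen with earlier results of these data known. All member genes are named. Up to 3 called genes of each list are named per direction, smallest p first. C1qa, which was not called, is named beside C1qb and C1qc. Columns of the value table matched their per-array files by deviations from the mean (r at least 0.679, others at most 0.497). Alternatives were other limits, detection calls, MAS5-type signals (floor at the 5th percentile, quantile normalization), other filters, centring, trend and robust variance, and each array left out. Python 3.11.15 and matplotlib 3.10.9 drew the figures.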

Additional observations from a re-analysis of the deposited data

Results flagged for a closer look

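Among the 80 sets of 4 arrays (1 probe set in 1 strain), 8 had an array set apart from its group by more than Dixon's 95% critical value; chance gives about 1 in 20. In AKR/J these were Uqcr10 1434340_at on array 2 (8.17, others 6.96 to 7.0), Pisd-ps3 1429452_x_at on array 3 (13.2, others 8.97 to 9.04), Prdx2 1430979_a_at on array 3 (17.3, others 10.3 to 10.6), Rpgrip1 1454231_a_at on array 2 (6.19, others 6.23) and Stxbp6 1435396_at on array 1 (102, others 131 to 135). The first 4 of these lie at values where the probe set was undetected on most AKR/J arrays. In C57Bl/6J they were Stxbp6 1425749_at on array 5 (105, others 75.6 to 78.4), Jakmip1 1430597_at on array 6 (26.3, others 7.99 to 10.99) and Pisd-ps3 1434975_x_at on array 6 (1105, others 739 to 782). All intensities here are GCRMA values.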

How the results depend on the processing

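The number of members follows the limits. The 14 genes and 15 probe sets became 5 and 6 with C57Bl/6J values of at least 100, 65 and 67 with at least 25, 5 and 5 with AKR/J values of at most 10, 50 and 54 with at most 40, and 123 and 129 by detection calls alone, of which 9 and 8 were among the members. Leaving out each array in turn gave 14 to 17 genes and 15 to 18 probe sets and kept all 15. Other probe sets higher in C57Bl/6J numbered 8 to 10 and those higher in AKR/J 2 without single arrays. Of the lists, the ciliary gate gave 0 higher in C57Bl/6J with detection on all 8 arrays. It gave 1 higher in AKR/J with the MAS5-type signals (2 to 3 without single arrays). For the other lists the counts given are of genes higher in C57Bl/6J. The acinar list gave 11 with the MAS5-type signals. The macrophage list gave 4 with no filter on dim probe sets and 4 to 8 without single arrays. The lymphocyte list gave 0 with no filter, 2 with detection on all 8 arrays and 2 centred on array medians. With trend and robust variance the lymphocyte count was 3, and without single arrays 0 to 2. With the MAS5-type signals 13 of the 15 member differences moved by more than the spread between replicates, and none turned sign. Further quantile normalization moved the median of all differences from -0.01 to 0.00393. The cause of these moves was not tested. No paired analysis was possible because the strains share no replicate number. Signals near background limit the size of every fold against AKR/J.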

Other observations

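No member gene lay next to another among the genes tested, in the order of the RefSeq gene table. The nearest tested gene on each side of 13 members, 26 in all, gave 3 higher in C57Bl/6J, 4 higher in AKR/J and 19 not called by limma; over all genes tested 8.55% were higher in C57Bl/6J and 7.79% in AKR/J. Beside Mndal, the related gene Ifi202b, which C57Bl/6J is known to express poorly, was 3.33-fold higher in AKR/J (limma adjusted p = 5.06e-05), the reverse of Mndal. Beside Jakmip1, the neuronal gene Crmp1 was 3.11-fold higher in AKR/J (adjusted p = 0.000101). Rnaseh2a beside Prdx2 (1.67-fold) and Supt16 beside Rpgrip1 (1.56-fold) were also higher in AKR/J. Those higher in C57Bl/6J were Spsb3 beside Eme2 (2.15-fold), Nrcam beside Stxbp6 (1.80-fold) and Ak3 beside Cdc37l1 (1.24-fold). These 7 were named because they passed, after their values were seen.

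Within C57Bl/6J, arrays 5 and 6 both lay above arrays 7 and 8 for 5 members (Prune2, Jakmip1, Mndal, Gal and 1453145_at of Pisd-ps3), and below both for 2 (Lefty1 and Prdx2). Over all tested probe sets those shares were 22.7% and 21.3%.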
